A study of Mus musculus with 6 samples.

Results

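The genes described here are Sharpin, Rnf31 and Rbck1, which encode the LUBAC complex that assembles linear ubiquitin chains, and 7 partners whose products cut or bind its chains or act beside them in the same signalling: Cyld, Spata2, Ikbkg, Tnip1, Tab2, Tab3 and Map3k7. They were chosen by symbol and function. All 10 had a row among the 23337 genes of the count tables, and all 10 were among the 13442 genes that passed the low-count filter. RNA was sequenced from stromal fibroblasts of the mouse mammary gland, 3 cultures from Sharpin-deficient animals (cpdm/cpdm, here cpdm) and 3 from wt/wt animals (wild type). Both genotypes were of the C57BL/KaLawRij strain and 7 weeks old, each culture pooled the glands of 3 mice, and no agent other than the serum-containing medium is named. The loss is present in every cell of the cpdm animal, and cells were harvested at passage 0 after growth to confluence, so the level of a transcript is that of a cultured population. The comparison asks whether the transcripts of the complex and of its close partners differ where SHARPIN is missing.

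LUBAC joins ubiquitin molecules head to tail into linear chains. Its catalytic subunit is HOIP, encoded by Rnf31, and SHARPIN and HOIL-1, encoded by Rbck1, bind HOIP, keep it active and stabilise it as a protein. At the TNF receptor these chains hold NEMO (Ikbkg) and with it the I-kappa-B kinases, beside the TAB proteins and TAK1 (Map3k7), which are held by chains of another linkage. CYLD, brought to LUBAC by SPATA2, cuts the chains again. SHARPIN is also known for holding integrins inactive, and cpdm animals for inflamed skin.

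The cpdm allele is a spontaneous single-base deletion in exon 1 of Sharpin that shifts the reading frame. Sharpin lies at chr15:76347040-76351111 on the minus strand (mm10, GENCODE M21, ENSMUSG00000022552.16), and its full-length transcript has 9 exons and 380 codons. The reference coding part of exon 1, the stretch in which the frame is lost, is 198 bases at chr15:76350481-76350678, minus strand. It is shown in reference form and not as read in these cultures, with the start codon in capitals.
Sharpin exon 1 coding part: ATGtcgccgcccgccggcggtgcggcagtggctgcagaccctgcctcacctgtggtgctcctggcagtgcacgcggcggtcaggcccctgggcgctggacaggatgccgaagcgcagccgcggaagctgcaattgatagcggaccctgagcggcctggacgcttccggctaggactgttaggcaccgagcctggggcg
The counts are per gene and not per base, so they do not show the deletion itself. Reads from a frameshifted transcript still count for the gene, and the level of Sharpin RNA is a measurement beside the label rather than a proof of the genotype.

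Sharpin transcript was lower in every cpdm library than in every wild-type library, an order that 2.59% of all tested genes had in this direction. Counts scaled to a common total of gene counts (CPM) were 10.5, 9.13 and 9.50 in cpdm libraries 1 to 3, against 24.5, 25.2 and 31.2 in those of the wild type. The groups lay far apart, and the 3 cpdm values were close together, with a spread of 7.08% of their mean where counting alone gives 8.55%. In wild type the spread was 13.7%, where counting alone gives 5.06%. The means were 9.70 ± 0.687 CPM in cpdm, against 27.0 ± 3.69 CPM in wild type (SD, n = 3 each), which leaves 36.0% of the wild-type mean. These levels rest on 142, 126 and 142 reads in cpdm and on 334, 395 and 444 reads in wild type. In a bulk culture, fewer cells that express a gene and less RNA per cell cannot be told apart.

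In edgeR's quasi-likelihood test of genotype, Sharpin had a log2 fold change of -1.49 ± 0.14 (SE, n = 3 per group) with a 95% interval from -1.82 to -1.16. Its adjusted p was 0.272 (Benjamini-Hochberg over all tested genes), the smallest of all, so that 0 of the 10 genes passed the threshold of 0.05, as did 0 of 13442 genes (0%). At an unadjusted p under 0.05 that test held 307 genes, DESeq2 without a replicate term called 10 genes (0.0744%), Sharpin among them, and limma-voom 0. The labels number the libraries 1 to 3 in both genotypes, and libraries of the same number deviated together. With that number as a block, Sharpin fell, with a log2 fold change of -1.48 ± 0.12, a 95% interval from -1.77 to -1.20 and 0.00595 as its adjusted p in that test. It was then 1 of 10 called, lower, where the same fit called 2.51% of all tested genes, 2.11% of them lower and 0.394% higher. The fit without the block was planned as the main one and called 0 of 13442 genes, and the use of the pairs is a choice that comes from these data. In the rest of the text, "passed" refers to edgeR's test with the block unless another fit is named. The number of genes that fit called depended on the pairs used, with 673 without pair 1, 128 without pair 2 and 44 without pair 3, and Sharpin was called each time. On counts simulated for this design, the fit with the block made more false calls than its threshold implies. The size of the differences between pairs in that simulation was set, not fitted to these data.

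Within same-numbered libraries, Sharpin stood at 0.427 times the wild-type level in pair 1 (95% exact interval 0.349 to 0.522, counting error only). The ratio was 0.362 in pair 2 (0.294 to 0.443) and 0.305 in pair 3 (0.250 to 0.369). All 3 intervals lay far below 1, and those of pairs 1 and 2 and of pairs 2 and 3 overlapped.

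The genes beside Sharpin on chromosome 15 stood at like levels in both genotypes. Cyc1, the cytochrome c1 subunit of the respiratory chain, ends 779 bases from Sharpin, and Maf1, a repressor of RNA polymerase III, starts 182 bases away on the opposite strand. Cyc1 averaged 116 ± 10.6 CPM in cpdm, against 114 ± 5.50 CPM in wild type, with a log2 fold change of 0.01 ± 0.05 (adjusted p = 0.957, edgeR with the block). Maf1 averaged 52.8 ± 8.05 CPM in cpdm, against 51.6 ± 7.58 CPM in wild type, with 0.02 ± 0.05 (adjusted p = 0.881). Of the 55 other tested genes within 1 Mb of Sharpin, 1 passed with the block, beside 2.51% of all tested genes, and 6 had an unadjusted p under 0.05, beside 17.3%. It was Gpihbp1, which anchors lipoprotein lipase on capillary endothelium, at a log2 fold change of -1.15, named after its values were seen.

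The cultures carried fibroblast transcripts at high levels: the 10 listed fibroblast markers summed to between 58783 and 73554 CPM in cpdm and between 61916 and 83756 CPM in wild type, with Col1a1 the most abundant. All 10 endothelial markers were detected as well, at 355 to 571 CPM in sum in cpdm and 504 to 971 CPM in wild type, with Cdh5 the most abundant. Of these 10, 9 passed as lower and 0 as higher, beside 2.11% lower and 0.394% higher of all tested genes. Of the 10 fibroblast markers 3 passed as lower, and of the 5 pericyte markers 2. Pericyte markers summed to 204 to 366 CPM in cpdm, against 238 to 377 CPM in wild type, led by Cspg4. Adipocyte markers summed to 22.9 to 43.9 CPM in cpdm, against 39.8 to 83.2 CPM in wild type, nearly all of it Fabp4, the 1 tested marker of 5, which passed as lower. The other 4 were under 1 CPM in every library, with Lep at 0, so this list rests on 1 gene. Schwann cell markers summed to 56.6 to 76.4 CPM in cpdm, against 41.6 to 56.3 CPM in wild type, led by Sox10. All 4 of them were higher in 3 of 3 pairs, beside 22.7% of all tested genes, and 1 of the 4 passed as higher. Lower in 3 of 3 pairs were 10 of 10 endothelial, 6 of 10 fibroblast and 4 of 5 pericyte markers, beside 18.5% of all tested genes. In these 3 lists 1 marker, a fibroblast one, was higher in 3 of 3 pairs. Epithelial markers summed to 131 to 330 CPM in cpdm, against 233 to 448 CPM in wild type, led by Krt18, with Csn2 at 0 and none of the 6 tested passing. Macrophage markers summed to 128 to 322 CPM in cpdm, against 67.3 to 376 CPM in wild type, led by Lyz2, again with none of 6 passing. The part of these other cells in the Sharpin result was not tested.

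**Figure D1:**
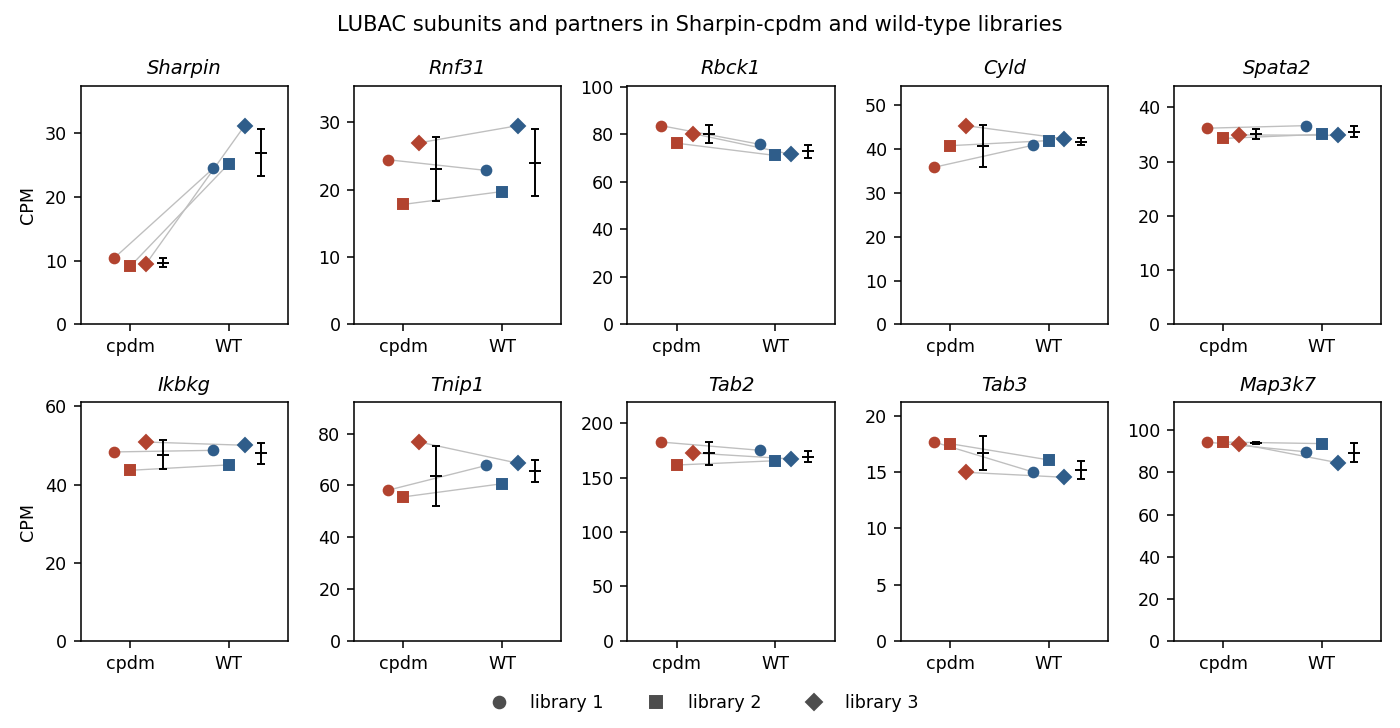
CPM (vertical axes, each from 0) of the 10 genes in cpdm (red, left) and wild-type (blue, right) libraries; the symbol gives the library number, grey lines join same-numbered libraries, and black bars are mean ± SD (n = 3). Sharpin separates the genotypes by a wide margin, Rbck1 by a narrow one, and the groups of the other 8 overlap.

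Rnf31, the catalytic subunit HOIP, differed more between libraries of 1 genotype than between genotypes. It stood at 24.5, 17.8 and 27.0 CPM in cpdm libraries 1 to 3, against 22.9, 19.7 and 29.5 CPM in those of the wild type. In both genotypes library 2 was lowest and library 3 highest, and the groups overlapped. The spread between libraries was 20.5% of the mean in cpdm and 20.8% in wild type, where counting alone gives 5.53% in cpdm and 5.37% in wild type. The log2 fold change was -0.07 ± 0.20 without the block and -0.07 ± 0.08 with it (adjusted p = 0.701, edgeR), and the 95% interval narrowed to -0.27 to 0.12. In the fit without the block its sign was not fixed, at 0.06 without cpdm library 2 and 0.10 without wild-type library 3. The last exon of Rnf31 (chr14:55591708-55603693) overlaps the start of Irf9 on the same strand. Irf9, a subunit of the interferon-activated factor ISGF3, was also lowest in library 2 and highest in library 3 of each genotype. It stood at 48.0, 30.8 and 52.3 CPM in cpdm, against 40.2, 29.7 and 60.0 CPM in wild type, and the part of shared reads in the level of Rnf31 was not tested.

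Rbck1, which encodes HOIL-1, was higher in all 3 pairs by a small amount that did not pass. Its level was 83.6, 76.3 and 80.3 CPM in cpdm libraries 1 to 3, against 75.8, 71.1 and 71.6 CPM in those of the wild type. The lowest cpdm value lay just above the highest wild-type value, an order that 3.35% of all tested genes had in this direction. With TMM scaling in place of the plain total, 2.61% of all tested genes were higher without overlap and 3.3% lower, against 3.35% and 2.59% in CPM, and Rbck1 (higher) and Sharpin (lower) were the members among them on both scales. The log2 fold change was 0.12 ± 0.04 with the block, with a 95% interval from 0.02 to 0.23, an unadjusted p of 0.0278 and an adjusted p of 0.223 (edgeR). An unadjusted p under 0.05 was reached by 17.3% of all tested genes in that fit, so the value of Rbck1 is near the background.

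**Figure D2:**
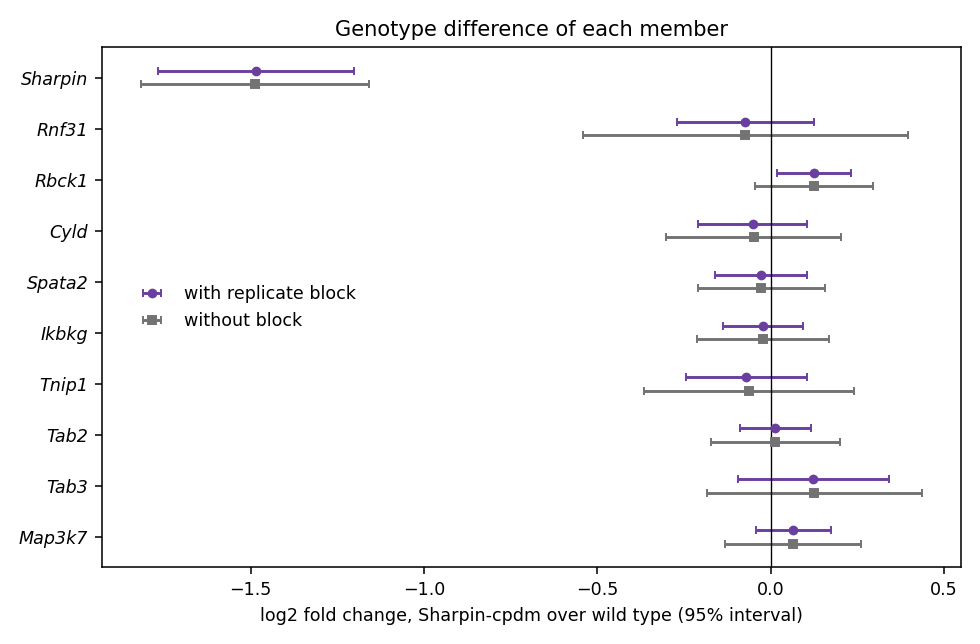
Log2 fold change of cpdm over wild type (horizontal axis) for each gene, with the replicate block (purple circles) and without it (grey squares); bars are 95% intervals from edgeR's quasi-likelihood fit (3 libraries per genotype). Sharpin lies near -1.48, and the intervals with the block of the other 9 genes lie between -0.27 and 0.34.

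Levels of different genes were compared as CPM per kilobase of merged exons (RPKM). On this scale the subunits were present in unequal amounts. Rnf31 was at 4.03 ± 0.82 RPKM in cpdm and 4.19 ± 0.87 RPKM in wild type. Rbck1 was at 17.4 ± 0.80 RPKM in cpdm and 15.8 ± 0.56 RPKM in wild type, and Sharpin at 2.54 ± 0.18 RPKM in cpdm and 7.07 ± 0.97 RPKM in wild type. Sharpin RNA therefore came to 0.643, 0.770 and 0.530 times Rnf31 RNA in cpdm libraries 1 to 3, and to 1.61, 1.92 and 1.59 times Rnf31 RNA in those of the wild type. The 2 sets of ratios did not overlap. Of the summed RPKM of the 3 subunits, Sharpin made up 10.6 ± 0.44% in cpdm and 26.0 ± 2.23% in wild type (SD, n = 3 each). Rnf31 made up 16.7 ± 2.51% in cpdm and 15.4 ± 2.22% in wild type, and Rbck1 72.7 ± 2.18% in cpdm and 58.6 ± 4.10% in wild type. These shares are of 1 sum, so a lower share of Sharpin raises the others. With exons of protein-coding transcripts alone as the length, a choice made after the data were seen, the share of Sharpin was 12.8% in cpdm and 30.4% in wild type, and its ratio to Rnf31 averaged 0.866 in cpdm and 2.28 in wild type. That length is 1734 bases for Sharpin in place of 3815, 3485 for Rnf31 in place of 5734 and 2542 for Rbck1 in place of 4601. The wild-type share of Sharpin moved by more than its SD, so levels between subunits depend on the length chosen. The exon sets of the counting are not given in the sources used here, so the ratio within 1 library is less certain than its difference between genotypes.

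**Figure D3:**
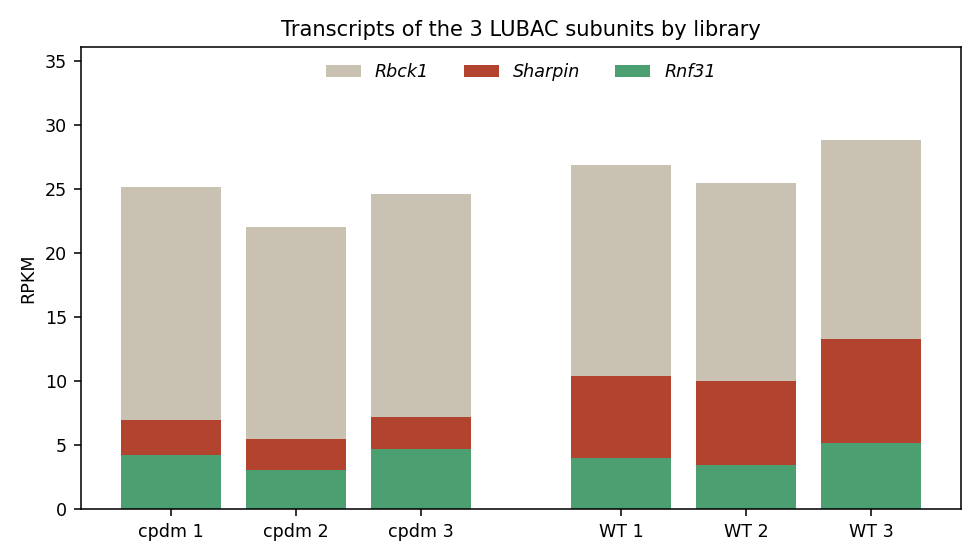
RPKM (vertical axis, from 0) of the 3 LUBAC subunit transcripts stacked for each of the 3 cpdm (left) and 3 wild-type (right) libraries. The band of Sharpin is 2.39 to 2.74 high in cpdm and 6.42 to 8.18 in wild type, and Rbck1 is the largest band in every library.

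The deubiquitinase CYLD and its adaptor SPATA2 did not pass. Cyld stood at 35.9, 40.8 and 45.4 CPM in cpdm libraries 1 to 3, against 40.9, 42.0 and 42.4 CPM in those of the wild type. The wild-type values fell inside the range of the cpdm values. The log2 fold change of Cyld was -0.05 ± 0.07 with the block (95% interval -0.21 to 0.11, adjusted p = 0.729, edgeR). In the fit without the block its sign turned without cpdm library 1, to 0.04. Spata2, which joins CYLD to HOIP, was the steadiest of the 10 over both genotypes, at 36.2, 34.3 and 34.9 CPM in cpdm, against 36.7, 35.1 and 34.9 CPM in wild type. Its log2 fold change was -0.03 ± 0.05 (95% interval -0.16 to 0.10, adjusted p = 0.838, edgeR with the block). The spread of Spata2 between libraries, 2.74% in cpdm and 2.75% in wild type, was below what counting alone gives, 4.49% in cpdm and 4.41% in wild type. The first exon of Spata2 (chr2:167481133-167492887) overlaps Rnf114, a ubiquitin ligase gene on the other strand, and the kit does not mark strand. Rnf114 averaged 76.5 ± 9.31 CPM in cpdm, against 76.2 ± 12.7 CPM in wild type.

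The readers of linear chains, NEMO and TNIP1, did not pass either. Ikbkg, which encodes NEMO, the regulatory subunit of the I-kappa-B kinase complex, stood at 48.3, 43.6 and 50.9 CPM in cpdm, against 48.7, 45.0 and 50.0 CPM in wild type. As with Rnf31, library 2 was lowest and library 3 highest in each genotype. Its log2 fold change was -0.02 ± 0.05 (95% interval -0.14 to 0.09, adjusted p = 0.846, edgeR with the block), and without the block its sign turned without cpdm library 2, to 0.0132, and without wild-type library 3, to 0.0096. Ikbkg shares sequence on the X chromosome with G6pdx on the opposite strand, which averaged 78.5 ± 0.811 CPM in cpdm, against 74.5 ± 8.03 CPM in wild type. Tnip1, which encodes an NF-kappa-B inhibitor that binds linear chains and A20, had the widest spread between cpdm libraries relative to its mean after Rnf31. It stood at 58.1, 55.6 and 76.8 CPM in cpdm, against 67.7, 60.7 and 68.6 CPM in wild type. Library 3 of cpdm was above every wild-type library and the other two were below every one. Pair 1 was at 0.858 times the wild-type level (95% exact interval 0.780 to 0.945) and pair 3 at 1.12 times (1.03 to 1.22), both beyond counting error and in opposite directions. The log2 fold change over the pairs was -0.07 ± 0.07 (95% interval -0.25 to 0.10, adjusted p = 0.677, edgeR with the block), and its sign was not fixed. Without the block it was 0.0031 without cpdm library 1, 0.0022 without cpdm library 2 and -0.20 without cpdm library 3.

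The TAK1 kinase and its chain-binding adaptors, TAB2 and TAB3, had log2 fold changes of 0.01 to 0.12 with the block. Tab2 was the most abundant of the 10, at 183, 162 and 173 CPM in cpdm, against 175, 166 and 167 CPM in wild type. Its groups overlapped, and the log2 fold change was 0.01 ± 0.04 (95% interval -0.09 to 0.12, adjusted p = 0.910, edgeR with the block), with the sign turned to -0.02 without cpdm library 1 in the fit without the block. Tab3 stood at 17.7, 17.5 and 15.0 CPM in cpdm, against 15.0, 16.1 and 14.6 CPM in wild type, higher in 3 of 3 pairs. Its log2 fold change of 0.12 ± 0.09 had a 95% interval from -0.09 to 0.34 and an adjusted p of 0.545, and its 205 to 252 reads per library limit the precision. Leaving out 1 library without the block gave 0.06 (cpdm library 2 left out) to 0.21 (cpdm library 3 left out). Map3k7, which encodes TAK1, was nearly constant in cpdm, at 94.4, 94.4 and 93.6 CPM, beside 89.8, 93.7 and 84.6 CPM in wild type. The spread in cpdm was 0.479% of the mean, below the 2.74% that counting alone gives, so it is not read as a trait of cpdm. In wild type the spread was 5.09%, where counting alone gives 2.77%. The log2 fold change of Map3k7 was 0.06 ± 0.04 (95% interval -0.04 to 0.17, adjusted p = 0.523, edgeR with the block), with 3 of 3 pairs higher. Leaving out 1 library without the block gave 0.03 (wild-type library 3 left out) to 0.11 (wild-type library 2 left out). Of all tested genes, 22.7% were higher in 3 of 3 pairs and 18.5% lower, beside 3 of the 10 genes higher (Rbck1, Tab3 and Map3k7) and 1 lower (Sharpin).

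Over the 9 genes other than Sharpin, edgeR with the block called 0 and 1, Rbck1, had an unadjusted p under 0.05; 0 passed in DESeq2 with or without the block or in limma-voom. Their median log2 fold change was -0.02, beside -0.0017 for all tested genes. The 95% intervals with the block lay between a fall of 17.1% (Rnf31) and a rise of 26.6% (Tab3). That range joins bounds of different genes. For each gene, differences inside its own interval, such as -6.04% to 8.33% for Tab2, are not resolved by 3 pairs. Differences outside it are not excluded, since the fit with the block made more false calls on simulated counts than its threshold implies. For Tab2 the interval without the block was -11.3% to 14.9%. Without the block the intervals ran from -31.3% to 31.5% for Rnf31 and from -12.0% to 35.3% for Tab3. Of the 27 ratios within pairs of the 9 genes, 6 lay beyond the counting interval, 4 of them in Rbck1 and Tnip1. That interval holds counting error only, and libraries of 1 genotype differed by more than that. The share over all tested genes was not computed, so nothing is read from this count.

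In wild type the genes ranked by RPKM as Tab2 (27.6 ± 0.84), Tnip1 (18.6 ± 1.23), Rbck1 (15.8), Map3k7 (13.9 ± 0.71), Spata2 (7.88 ± 0.22), Sharpin (7.07), Ikbkg (5.91 ± 0.32), Rnf31 (4.19), Cyld (3.32 ± 0.06) and Tab3 (2.29 ± 0.12). Spata2 and Sharpin overlapped in wild type and the other neighbours in this order did not. In cpdm, Sharpin stood next to last, at 2.54 RPKM beside 2.52 ± 0.23 RPKM for Tab3, and these values overlapped. With coding exons as the length, Sharpin was the fourth of the 10 in wild type and the eighth in cpdm, and Rbck1 stood above Tnip1.

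Likeness of pattern was measured as Pearson's r of log2 CPM over the 6 libraries, given as a description, since libraries of 1 genotype share it and same-numbered libraries deviate together. The 5 genes most like Sharpin among 10300 candidates were Exoc3l (r = 0.993), Pitpnc1 (0.974), Stx17 (0.972), Papln (0.968) and Palmd (0.968). Since Sharpin itself separates the genotypes, genes chosen for their likeness to it do so by that choice, and nothing is read from their difference. Papln, a matrix glycoprotein gene, stood at 3.76, 4.28 and 3.82 CPM in cpdm, against 7.84, 9.39 and 8.72 CPM in wild type. Exoc3l, related to a subunit of the exocyst, stood at 7.30, 7.25 and 7.16 CPM in cpdm, against 12.4, 12.1 and 13.1 CPM in wild type. Among the 10 themselves, ranked by positive r over the 6 libraries, Rnf31 and Ikbkg were most like each other (r = 0.970, also 0.970 after the genotype means were removed). Tab3 and Map3k7 came next (0.826, and 0.773 after that step, when Tab3 was as like Spata2, at 0.773). Some negative r were larger in size than 0.826, such as -0.946 for Tnip1 and Tab3, -0.944 for Cyld and Tab2 and -0.909 for Ikbkg and Map3k7. Tnip1 was most like Ikbkg (0.791), Cyld most like Tnip1 (0.604), and Rbck1 and Tab2 most like each other (0.556, and 0.943 after the genotype means were removed). Spata2 was most like Tab2 (0.444), or Rbck1 after the genotype means were removed (0.774). Sharpin was most like Spata2 (0.419), or Rnf31 after the genotype means were removed (0.611), and its largest correlation in size was the negative one with Rbck1 (r = -0.901). Sharpin and Rbck1 both separate the genotypes without overlap, in opposite directions, so this r includes the genotype difference. Its value after the genotype means were removed is not given.

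A wider list held 48 genes that write, cut or read ubiquitin chains or bring LUBAC to a receptor, of which 46 were tested: Tnip3 fell under the low-count filter, and Ube2d2a was not matched by symbol. None of the 46 passed (0 higher and 0 lower in edgeR's test with or without the block), where the block called 2.51% of all tested genes; 10 of the 46 had an unadjusted p under 0.05 with the block, beside 17.3% of all tested genes, and DESeq2 called 0 in either fit. Their median log2 fold change with the block was 0.00048, beside -0.0017 for all tested genes. The 4 with the smallest p were Tnfrsf1a, Tbkbp1, Sqstm1 and Nod2. Tnfrsf1a, the TNF receptor at which LUBAC is known to act, stood at 277, 202 and 300.0 CPM in cpdm, against 304, 225 and 332 CPM in wild type. It was lower in 3 of 3 pairs while the groups overlapped, with a log2 fold change of -0.16 ± 0.04 and an adjusted p of 0.128 (edgeR with the block). Tbkbp1, an adaptor of the kinase TBK1, had -0.39 ± 0.10 (adjusted p = 0.133) and Sqstm1, the autophagy receptor p62, 0.13 ± 0.04 (adjusted p = 0.190). Nod2, a receptor for bacterial cell-wall fragments, had -0.95 ± 0.31 (adjusted p = 0.194) on only 4 to 28 reads per library.

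OTULIN, the deubiquitinase that cuts linear chains alone, and A20 (Tnfaip3), which binds them, were picked out for their roles with their values in view. Otulin, listed under its older symbol Fam105b, stood at 29.2, 27.7 and 29.1 CPM in cpdm, against 27.3, 25.0 and 23.8 CPM in wild type. Every cpdm value was above every wild-type value, with a log2 fold change of 0.16 ± 0.07 and an adjusted p of 0.286 (edgeR with the block). Tnfaip3 stood at 13.6, 16.2 and 14.7 CPM in cpdm, against 11.4, 11.8 and 13.2 CPM in wild type, again without overlap, with 0.28 ± 0.11 and an adjusted p of 0.270. They were the 2 of 46 that were higher without overlap in CPM, beside 3.35% of all tested genes, and 0 were lower, beside 2.59%. With TMM scaling the same 2 were higher without overlap, beside 2.61% of all tested genes, and 1 other was lower, beside 3.3%.

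**Figure D4:**
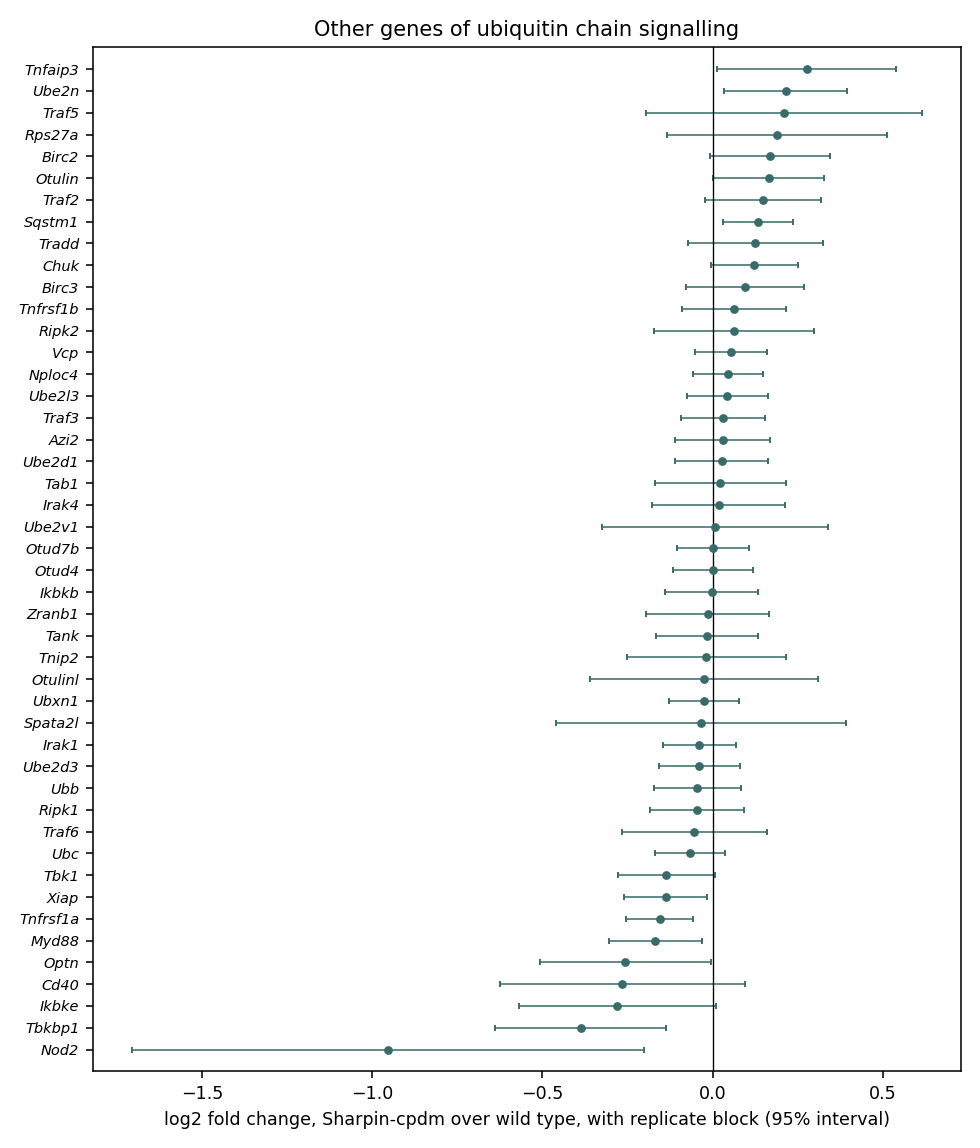
Log2 fold change of cpdm over wild type with the replicate block (horizontal axis) for the 46 tested genes of the wider list, sorted; bars are 95% intervals not adjusted for the number of genes. Values run from -0.95 for Nod2, at mean levels of 0.630 CPM in cpdm and 1.21 CPM in wild type, to 0.28 for Tnfaip3, and none passed after adjustment.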

How the data were processed

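RNA of 6 cultures of mammary stromal fibroblasts was sequenced after TruSeq RNA v2 preparation, per the labels' protocols. Each library has its own table of whole-number counts by gene symbol, as deposited. The submitters' processing notes name mm10 with HTSeq 0.5.4p3, TopHat2 2.0.10 and bcl2fastq 1.8.4; for annotation, strand and overlap settings nothing is given in the sources used here. Of each table, 5 summary rows, 48.8% to 51.2% of all entries and mostly alignments to several places, were left out. Gene counts came to between 13570649 and 15656196 per library.

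CPM is the count scaled to a common total of gene counts. Counts were filtered with filterByExpr, scaled by TMM (factors 0.969 to 1.03) and tested in R 4.3.3 with edgeR 4.0.16, two-sided, with Benjamini-Hochberg adjustment over 13442 genes at 0.05. DESeq2 1.42.0 and limma 3.58.1 were alternatives. The SE is the size of the log2 fold change over the square root of F, and log2 CPM has a prior count of 2. On simulated counts the fit with the block made more false calls than its threshold implies, and that without it made none. The differences between pairs in that simulation had a set size, not one fitted to these data.

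Deviations from genotype means correlated at 0.457, 0.809 and 0.737 in same-numbered libraries 1, 2 and 3, and at most at 0.00676 in other combinations. The numbers were therefore taken as pairs, a choice that comes from the data. Deviations cancel out within each genotype, so high values in same-numbered libraries lower the others, which are not separate support. The fit without the block was planned as the main one, and the fit with it as an alternative. Libraries of 1 genotype differed beyond sampling noise (chi-square per degree of freedom 16.9 or more). Coordinates, lengths and the transcript are from GENCODE M21 (mm10).

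The genes and lists were chosen with earlier results of these data known. Named were the 10 genes, called genes of the wider list or else the 4 with the smallest p, neighbours of Sharpin, genes overlapping a member, the 5 most like Sharpin (mean of at least 5 CPM) and the top marker of each list; exceptions are stated. A gene of the wider list is not reported here.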

Additional observations from a re-analysis of the deposited data

How the results depend on the processing

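Sharpin kept a negative log2 fold change in all 18 alternatives, between -1.61 and -1.34. It passed with the replicate block (-1.48, adjusted p = 0.00595 in edgeR's test) and in DESeq2 without it (-1.49, adjusted p = 1.31e-12) and with it (-1.48, adjusted p = 6.94e-12). With the block, leaving out 1 pair gave -1.61 (pair 1), -1.50 (pair 2) and -1.34 (pair 3), and it passed each time. It did not pass in limma-voom, under other scalings or filters, or when a library was left out without the block.
The count of called genes was 0 without the block, 337 with it, 10 in DESeq2 and 341 in DESeq2 with the block; leaving out pair 1, 2 or 3 gave 673, 128 and 44. The count of the 10 genes called was 0 without the block and 1 (Sharpin) with it, in DESeq2, in DESeq2 with the block and with the block after leaving out any pair. The wider list had 0 calls in every alternative.
The other 9 genes gave 162 values, none past the threshold (smallest adjusted p = 0.223), and 11 had the opposite sign, all when libraries were left out. Leaving out 1 library gave Rnf31 -0.19 to 0.10, Cyld -0.12 to 0.04 (0.0407), Ikbkg -0.0551 to 0.0132, Tnip1 -0.20 to 0.0031 and Tab2 -0.0219 to 0.0341, and without pair 1 the block gave Cyld 0.0155, Tnip1 0.0079 and Tab2 -0.0078.
The share of Sharpin in the subunits' RPKM in wild type was 26.0%, and moved to 30.4% with coding exons as the length, by more than the SD between wild-type libraries. Depth limits Tab3 and Sharpin most.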
